A study of Mus musculus with 12 samples.

Results

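The genes described here encode the proteins of the cytosolic ribosome. They were chosen by symbol from a table of counts in adult mouse forebrain: symbols beginning Rpl or Rps and a digit, with Rplp0, Rplp1, Rplp2 and Rpsa, without the Rps6k kinases, pseudogenes and other rows that are not protein-coding. Of 56748 genes in the table, 391 matched the pattern and 86 remained as members. They were 43 large-subunit proteins, 31 small-subunit proteins, 3 proteins of the stalk and 7 paralogs or retrogenes. The pattern also took 2 genes that are not ribosomal proteins, Rps19bp1, which encodes a binding partner of Rps19, and Rpl7l1, a factor of large-subunit assembly. All members were kept, and 84 passed the filter on low counts.

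RNA was sequenced from 12 libraries in 4 groups of 3. WT was wildtype without treatment, and htr carried a conditional Notch knockout that the labels call htr3a Notch KO. WT_V was wildtype exposed to valproic acid before birth, and htr_V was the same knockout with the same exposure. Valproic acid treats epilepsy and inhibits histone deacetylases, and in pregnant rodents it is used to model autism in the offspring. The sources used here do not give the Notch gene deleted, the driver of the deletion, the strain, the exact age, or the dose and timing of the drug. They also leave unsaid whether libraries came from separate animals, so p-values measure only the spread between these libraries.

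A ribosome has a small subunit, which reads the messenger RNA, and a large subunit, which joins the amino acids, and each is a ribosomal RNA scaffold bound by its own set of proteins. The proteins are needed in near-equal amounts, and most vertebrate genes for them give messenger RNAs that start with a terminal oligopyrimidine tract, a cytosine followed by further pyrimidines, through which the mTORC1 pathway controls their translation. In neurons ribosomes also work in dendrites and axons, where new protein is made near synapses.

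The tract can be read at the annotated starts of these genes. RefSeq windows of the build GRCm38.p6 were matched by symbol for 66 members, which had 78 windows. The lines below give 15 bases before the annotated first transcribed base and 15 bases from it on, with the longest unbroken pyrimidine run within 5 bases of the start in capitals. The first 5 begin with the tract at the annotated base. The last 5 do not begin with it at that base. Members of both sets are named in the comparisons below, with Rplp2, Rpl38 and Rpl28 among the first 5.
Rps6, chr4:86857353-86857382, minus strand: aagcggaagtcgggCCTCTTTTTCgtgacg
Rps18, chr17:33955651-33955680, minus strand: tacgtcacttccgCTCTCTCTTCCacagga
Rplp2, chr7:141447636-141447665, plus strand: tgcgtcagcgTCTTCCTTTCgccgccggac
Rpl38, chr11:114668565-114668594, plus strand: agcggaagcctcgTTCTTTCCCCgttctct
Rpl28, chr7:4792950-4792979, plus strand: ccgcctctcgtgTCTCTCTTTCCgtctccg
Rpl13a, chr7:45128731-45128760, minus strand: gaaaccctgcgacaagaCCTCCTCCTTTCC
Rpl22l1, chr3:28805493-28805522, plus strand: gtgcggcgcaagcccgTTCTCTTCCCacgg
Rpl41, chr10:128549154-128549183, minus strand: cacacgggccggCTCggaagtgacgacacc
Rps28, chr17:33824548-33824577, minus strand: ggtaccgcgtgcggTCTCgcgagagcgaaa
Rpsa, chr9:120127751-120127780, plus strand: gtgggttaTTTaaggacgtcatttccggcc

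Rps6 is the protein phosphorylated by the S6 kinases, and Rplp2 is a stalk protein. In Rpl13a and Rpl22l1 the run begins a base or more past the annotated start. A C followed by at least 4 pyrimidines stood at the annotated start in 14 of the 78 member windows (17.95%), against 2.505% of 32851 windows of all genes. A run of at least 8 pyrimidines lay within 5 bases of the start in 24 (30.77%, against 9.723%). In the 250 bases before the start, searched on both strands, CCGGAAG, a core bound by ETS factors, was in 25.64% of member windows and 6.907% of all windows. The GC box GGGCGG, whose letters can overlap those of CCGGAAG, was in 48.72% and 32.74%. TATAA was in 16.67% and 22.78%, and the YY1 core AAGATGGC in 3.846% and 1.565%. Some genes have several windows and an annotated start can miss the real one by some bases.

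Libraries held 16887885 to 24944681 counts. Of 12 forebrain markers all were tested and none was at 0, whereas 5 of 12 hindbrain and cerebellum markers were at 0 in every library. Genes of the mitochondrial genome took 12.2% to 18.6% of counts, with the highest share in htr_V replicate 1 and the next, 16.4%, in WT_V replicate 3. Xist, an RNA made from the inactive X chromosome in females, had 12 counts in WT_V replicate 3 and 6 in htr_V replicate 3, against 5919 to 10767 elsewhere.

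The ribosomal protein genes together held a small and narrow share of the counts. Their share of all counts was 2.60%, 2.62% and 2.91% in WT and 2.80%, 2.67% and 2.80% in htr. It was 2.48%, 2.48% and 2.69% in WT_V and 2.95%, 2.85% and 2.84% in htr_V. The group means were 2.71% ± 0.173 (SD, n = 3), 2.76% ± 0.0781, 2.55% ± 0.121 and 2.88% ± 0.0602. The htr_V libraries all stood above the WT_V libraries, and WT replicate 3 lay within the range of htr_V. The median member, set against its own mean over the 12 libraries on the log2 scale, was lowest in WT_V replicates 1 and 2 (-0.19 and -0.16), highest in htr_V replicate 1 (0.21), and between -0.06 and 0.08 in the other 9. Group means were highest in htr_V for 64 of the 84 tested members and lowest in WT_V for 61. In bulk RNA, more cells rich in these transcripts and more transcript per cell cannot be told apart.

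**Figure D1:**
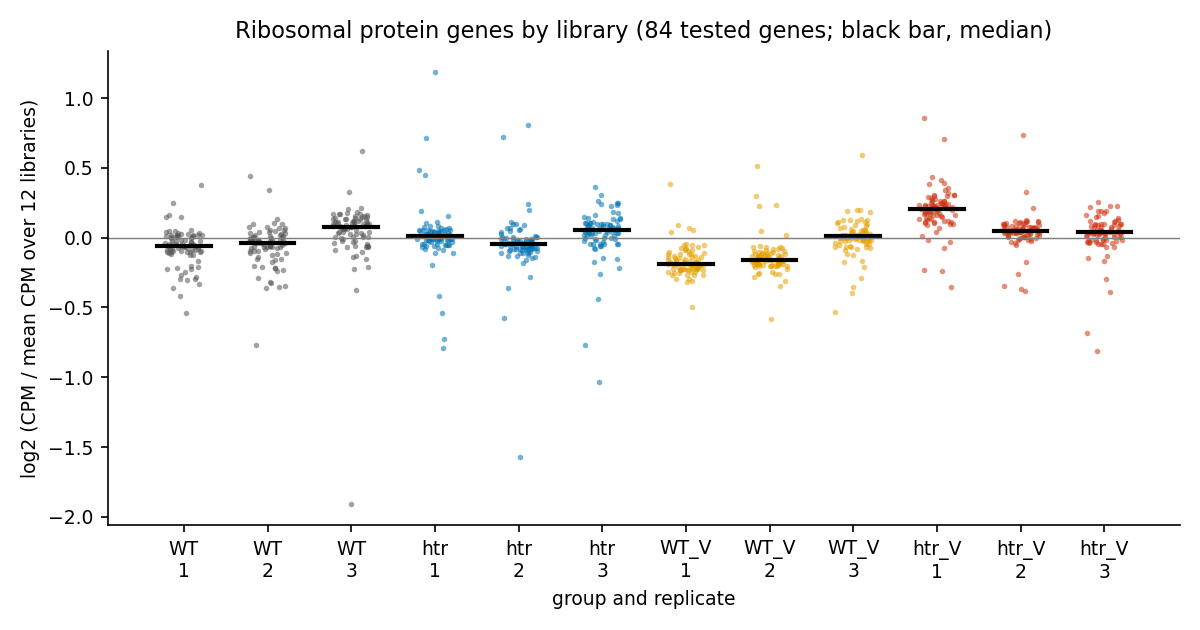
Each dot is 1 of the 84 tested ribosomal protein genes, plotted on the y axis as log2 of its CPM over its mean CPM in the 12 libraries (x axis, group and replicate), and the black bar is the median. The bars of WT_V replicates 1 and 2 lie lowest, at -0.19 and -0.16, and that of htr_V replicate 1 highest, at 0.21.

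Levels differed far more between members than between groups. On the scale of CPM (counts scaled by library size and TMM factors) per kilobase of coding sequence, averaged over the 12 libraries, Rpl41 was highest at 11557. It encodes the smallest ribosomal protein, and its coding sequence of 75 nucleotides makes this figure large: per kilobase of transcript it was at 1489, second to Rplp1 at 1888. Per coding kilobase the next were Rps29 at 2950, Rplp1 at 2754, Rps21 at 2006 and Rpl37 at 1663, and 4 of these 5 were also among the 5 highest per kilobase of transcript. Rpl37 was not, at 580. In CPM, Rpl41 ran from 722 to 1109 over the libraries, Rps29 from 371 to 659, Rplp1 from 836 to 1142, Rps21 from 401 to 656 and Rpl37 from 408 to 603. The lowest 5 per coding kilobase were Rpl10l, Rpl3l, Rpl39l, Rpl36al and Rps10.

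Sequence shared with other rows bears on these levels. Ribosomal protein genes have many processed pseudogenes, and the median member shared 43.9% of its 50-base stretches with the transcripts of other genes, 37 members sharing at least 50%. Rps10 held 3.39% of the counts of its family, here the member with every non-member row that carries at least 25% of its 50-base stretches. Rps10 alone was at 1.65 to 3.12 CPM, and with its copies at 59.4 to 82.1. Rpl24 held 33.9% of its family's counts. Rps10, Rpl24, Rpl36al and Rpl13a each overlap another annotated gene on the chromosome (RPS10-NUDT3, Gm28037, Gm49383 and Gm45713), and each of those 4 rows held 0 counts. The sources used here do not say how reads in such overlaps were counted, so low values in these members are not read as low expression.

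The knockout was compared with wildtype first under valproic acid, htr_V against WT_V. No member passed the test, and the members lay above 0 as a body. Fitted log2 fold changes were above 0 in 79 of 84 members (51.2% of all tested genes) with a median of 0.21, and their lower and upper quartiles were 0.16 and 0.24. The median of all 17995 tested genes was 0.00. The 585 tested protein-coding genes with a coding sequence of up to 357 nucleotides, members included, had a median of 0.12. The 6556 of up to 1257 nucleotides, the length of the longest member, had a median of 0.03. With edgeR's quasi-likelihood test 0 members were called at an adjusted p under 0.05, against 0.05% of all tested genes, and the smallest adjusted p was 0.289. DESeq2 called 1, Rpl36, and limma-voom 0, beside 25 and 11 of all tested genes. At an unadjusted p under 0.05, 60 members were higher (4.01% of all tested genes) and 0 lower (3.42%). The htr_V libraries all exceeded the WT_V libraries in 41 members (6.96%). Both subunits shared this: the median was 0.20 over 43 large-subunit genes, 0.21 over 31 small-subunit genes and 0.24 over the 3 stalk genes. Rps19bp1 and Rpl7l1, the 2 that are not ribosomal proteins, were at -0.08 and -0.02.

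Rpl13a, a large-subunit protein also known for a role in silencing translation outside the ribosome, had the smallest p. It was at 25.9, 26.6 and 30.4 CPM in WT_V and at 39.3, 31.3 and 35.1 in htr_V, without overlap, and at 30.3 to 33.1 in the 6 untreated libraries. Its log2 fold change was 0.35 ± 0.09 (SE). Other annotated genes, Gm45713 among them, overlap 35.4% of its exons, and it shares 57.4% of its 50-base stretches. Rpl41 was at 766, 722 and 890 CPM in WT_V and at 1109, 941 and 929 in htr_V (log2 0.33 ± 0.09, adjusted p = 0.352 with edgeR). The groups did not overlap, but WT_V replicate 3 was closer to htr_V than to the other WT_V libraries. Rps28, a small-subunit protein, was at 207, 195 and 239 CPM in WT_V and at 281, 241 and 260 in htr_V (log2 0.29 ± 0.08). Rpl36, Rpl37a and Rplp2 completed the 6 smallest p-values, with log2 fold changes of 0.25, 0.26 and 0.24. The largest fold change belonged to Rps27a (log2 0.61 ± 0.32), which encodes ubiquitin fused to a ribosomal protein, and its libraries overlapped. The lowest belonged to Rpl17, Rpl36al and Rps27rt (-0.34, -0.23 and -0.16), with standard errors of 0.37, 0.54 and 0.40.

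**Figure D2:**
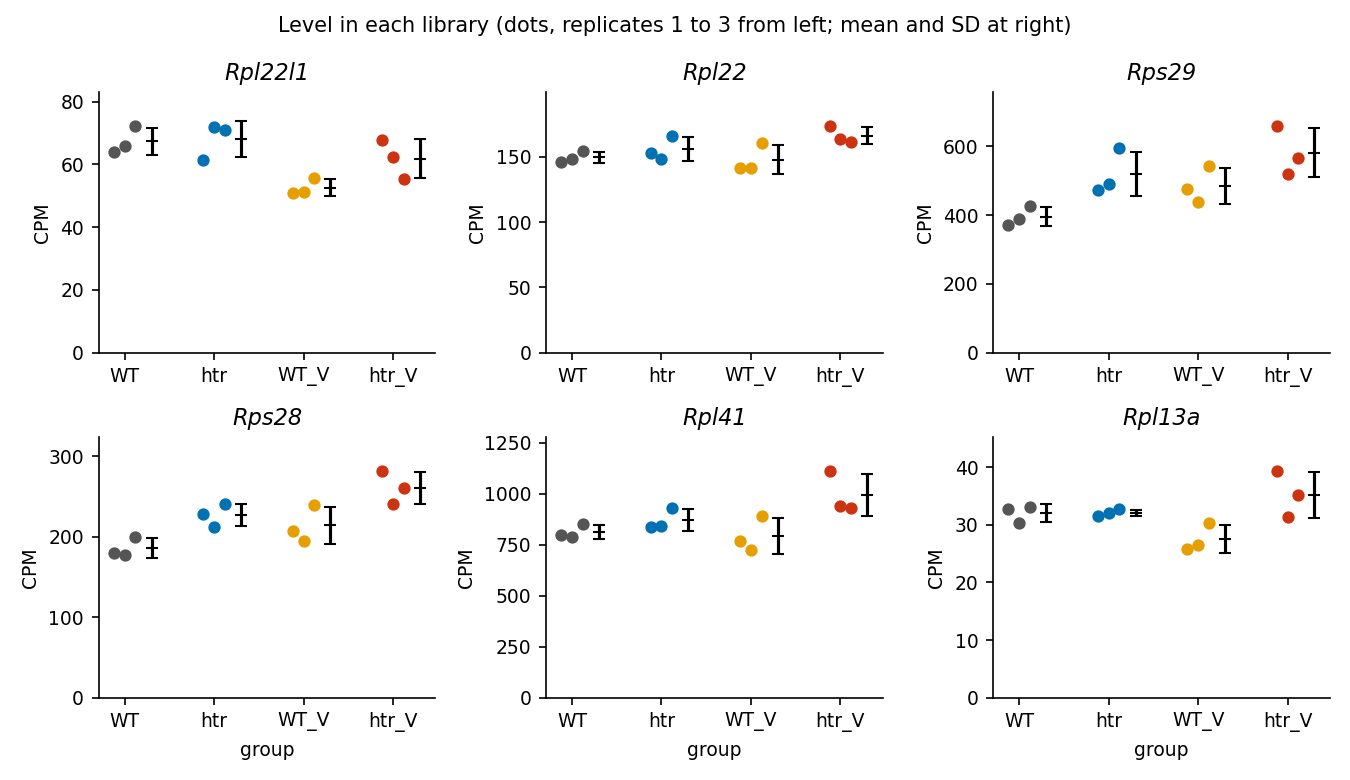
CPM (y axis) in each library by group (x axis) for 6 members, with dots for replicates 1 to 3 from left to right and the mean ± SD beside them. In Rpl41 and Rpl13a the htr_V dots all lie above the WT_V dots, and in Rpl22l1 the WT_V dots lie below every WT dot.

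This comparison rested on few libraries. Without WT_V replicate 3, 4 members were called (Rpl13a, Rpl41, Rps18 and Rps28) and the median was 0.27. In that setting 86 of all 17995 tested genes were called, in place of 9. Without htr_V replicate 1 the median was 0.14, with 26 members higher at an unadjusted p under 0.05 (2.93% of all genes) and 1 lower (2.85%). Without WT_V replicate 1 or 2 the count of higher members was 29 or 33 (2.42% and 2.50%). An offset for transcript length and GC content gave a median of 0.12 and a count of 26, with 2.44% of all genes higher at that p. Without both htr_V replicate 1 and WT_V replicate 3, the libraries with the most mitochondrial RNA, the median was 0.21. The count was then 55 (4.40%), and 1 member was lower (4.50%).

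Other transcripts differed between the same libraries. All 16 choroid plexus markers were above 0 (median log2 0.67, 1 called), with summed levels of 1819 to 3530 CPM in WT_V and 3488 to 4251 in htr_V, and none was at 0 in all libraries. So were 12 of 13 tested ependymal markers (median 0.32) and 7 of 7 blood markers (median 0.73), whereas 12 of 14 neuronal markers were below 0 (median -0.12). Markers of striatal projection neurons went the other way, with 18 of 20 above 0 (median 0.14). Of these, 3 were higher at an unadjusted p under 0.05, with sums of 2590 to 2843 CPM in WT_V and 2824 to 3234 in htr_V. Summed blood markers were at 100 to 144 CPM in WT_V and 156 to 207 in htr_V, and summed neuronal markers at 11100 to 11630 and 10770 to 11530. Their part in the values of the ribosomal protein genes was not tested.

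Without treatment, htr against WT, the members did not move as a body. In this comparison 45 of 84 were above 0 (49.7% of all genes) and the median was 0.01. With edgeR 0 members were called (0.0389% of all genes), with DESeq2 and limma-voom 0, and the smallest adjusted p was 1.0. DESeq2 and limma-voom called 8 and 6 of all tested genes. At an unadjusted p under 0.05, 8 members were higher (1.74%; 10 with DESeq2 and 9 with limma-voom) and 0 lower (1.38%). Groups did not overlap in 9 members that were higher in htr (3.58%) and 3 that were lower (3.81%).

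Of the 8, 7 were among the 21 members with the shortest coding sequence. Rps29, a zinc-binding small-subunit protein, was at 371, 390 and 425 CPM in WT and at 474, 492 and 594 in htr, with every htr library above every WT library. Its log2 fold change was 0.40 ± 0.10 (SE). Rps28 was at 180, 177 and 200 CPM in WT and 228, 212 and 240 in htr (log2 0.29 ± 0.08). Rpl38, a large-subunit protein whose loss alters the translation of Hox genes in mouse embryos, was at 229, 233 and 244 in WT and 258, 275 and 313 in htr (log2 0.26 ± 0.08). Rpl37, Rpl36a and Rpl37a followed with log2 fold changes of 0.22, 0.21 and 0.20. The highest values after Rps27rt (0.85 ± 0.39) and Rps29 belonged to Rpl3l (0.29 ± 0.56), and the lowest to Rpl24 (-0.46 ± 0.26), Rpl17 (-0.44 ± 0.37) and Rps12 (-0.15 ± 0.09). The count of 8 was 4 without WT replicate 2 (2.03% of all genes) and 5 without WT replicate 1 or htr replicate 3 (1.63% and 1.46%). Without WT replicate 3 it was 13 (2.26%).

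The relation of fold changes to coding length differed in sign and size between the comparisons. In htr against WT the 21 shortest members, of up to 357 nucleotides, had a median log2 fold change of 0.16 with 19 of 21 above 0, and the 21 longest, of 624 nucleotides or more, a median of -0.05 with 4 of 21 above 0. Spearman's rho with coding length over the 84 members was -0.62, against -0.03 over 14842 tested protein-coding genes. In WT_V against WT the shortest and longest members were at -0.03 and -0.15 (rho -0.42 over members and 0.29 over all genes). In htr_V against WT_V they were at 0.25 and 0.17 (rho -0.41 and -0.22). In htr_V against htr they were at 0.15 and 0.08 (rho -0.07 and 0.13). In the interaction the order was the opposite, 0.07 for the shortest and 0.22 for the longest (rho 0.36 and -0.15). The 585 tested protein-coding genes of up to 357 nucleotides, members included, had medians of 0.02 in htr against WT and -0.11 in WT_V against WT. Their medians were 0.12 in htr_V against WT_V, -0.02 in htr_V against htr and 0.08 in the interaction. The members come from the same libraries and are not independent, so these values are a description. A shared group enters more than 1 of these contrasts. The part of length in the fold changes was not tested. The offset for length and GC content used transcript length, not coding length. With it the median in htr against WT was -0.01 and 34 of 84 members were above 0.

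**Figure D3:**
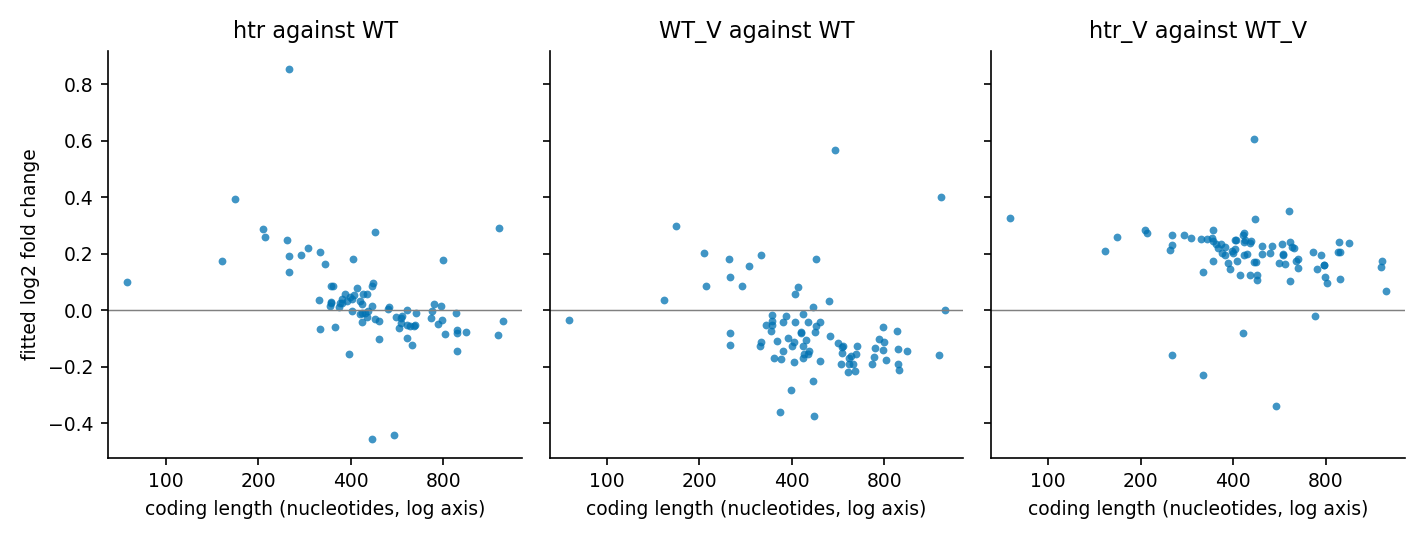
Fitted log2 fold change (y axis) against coding length in nucleotides (x axis, log scale) for the 84 tested ribosomal protein genes in 3 of the 5 comparisons. In htr against WT short genes lie above 0 and long genes near or below it, with a Spearman's rho of -0.62.

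Valproic acid in wildtype, WT_V against WT, gave the only member past the test among the 5 comparisons. Rpl22l1 fell, by 0.36 ± 0.08 on the log2 scale (1.28-fold; edgeR, adjusted p = 0.0317). It is the paralog of the RNA-binding large-subunit protein Rpl22, and the pair can replace each other in the ribosome. It was at 64.0, 65.9 and 72.2 CPM in WT and 50.7, 51.3 and 55.7 in WT_V, without overlap, at 61.3 to 71.7 in htr and at 55.4 to 67.8 in htr_V. Rpl22 was at 146, 149 and 155 CPM in WT and 141, 142 and 161 in WT_V, overlapping (log2 -0.02 ± 0.07). Rpl22l1 shares 57.3% of its 50-base stretches, holds 97.7% of its family's counts, and overlaps Gm33051 over 7.99% of its exons. The call was lost with limma-voom (adjusted p = 0.0501), with a term for Xist (0.0941), with the length and GC offset (0.118), and without any 1 of WT replicate 2, WT replicate 3, WT_V replicate 1 or WT_V replicate 2 (0.0722, 0.22, 0.147 and 0.109). With the replicate number as a block it was 0.0531.

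The other members leaned the same way. In this comparison 67 of 84 were below 0 and 17 above (51.5% of all genes above), with a median of -0.11. The 585 tested protein-coding genes with a coding sequence of up to 357 nucleotides, members included, also had a median of -0.11. The 6556 of up to 1257 nucleotides, the length of the longest member, had a median of -0.05. The 1 called compares with 0.895% of all tested genes. At an unadjusted p under 0.05, 21 were lower (7.61%) and 3 higher (6.55%), and groups did not overlap in 13 lower (10.9%) and 3 higher (9.84%) members. After Rpl22l1 the smallest p-values were those of Rps12 (-0.28 ± 0.09, adjusted p = 0.118 with edgeR), a small-subunit protein, and of Rpl10 (-0.21 ± 0.07, 0.127), which joins the large subunit late in its assembly. Rps12 was at 158, 140 and 137 CPM in WT and 129, 125 and 104 in WT_V, and shares 83.2% of its 50-base stretches. With its copies added its log2 fold change was -0.29 (adjusted p = 0.0485). Rpl15 and Rpl13 were at -0.19 each. Against this direction Rps29 was at 371 to 425 CPM in WT and 438 to 542 in WT_V (log2 0.30 ± 0.10, adjusted p = 0.148). The extremes were Rpl17 (0.57 ± 0.37) and Rpl3l (0.40 ± 0.55) on the high side and Rpl24 (-0.37 ± 0.26) on the low side.

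The lean of the body depended on WT replicate 3 and on WT_V replicates 1 and 2. Without WT replicate 3 the median was -0.07 and 5 members were lower at an unadjusted p under 0.05 (5.11% of all genes). Without WT_V replicate 1 the count was 4 (6.59%), and without WT_V replicate 2 it was 5 (6.62%). Without WT_V replicate 3 it was 38 (6.50%) with a median of -0.15. Markers of striatal projection neurons differed between the same groups: 20 of 20 were below 0 (median -0.62) and 8 of them fell, where 51.5% of all tested genes were above 0 and 0.895% were called, with summed levels of 3661 to 3903 CPM in WT and 2590 to 2843 in WT_V. Summed blood markers were at 162 to 243 CPM in WT and 100 to 144 in WT_V, with 7 of 7 tested below 0. Of 14 oligodendrocyte markers 12 were below 0 (median -0.11), with overlapping sums of 10580 to 11240 CPM and 9092 to 11400. Of 10 long RNAs retained in the nucleus 9 were above 0 (median 0.34), with 0 called by edgeR and 0 at an unadjusted p under 0.05. Their sums were 2572 to 3851 CPM in WT and 3890 to 4647 in WT_V, without overlap, and 2580 to 4603 in htr. No marker of these 4 lists was at 0 in all libraries. Their part in the values of the members was not tested.

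Valproic acid in the knockout, htr_V against htr, gave values of the opposite sign. Here 72 of 84 members were above 0 (51.8% of all genes) with a median of 0.09. With edgeR 0 were called (0.0556% of all genes). DESeq2 and limma-voom also called 0 members, beside 193 and 3 of all 17995 tested genes. At an unadjusted p under 0.05, 14 were higher (7.2%; 15 with DESeq2 and 15 with limma-voom) and 1, Rps27rt, lower (7.75%), and 22 were higher without overlap (9.88%). Among the higher members with the smallest p-values were Rplp2, Rpl28, Rps28 and Rpsa, at 0.18, 0.18, 0.20 and 0.20. The highest fold changes were those of Rpl17 (0.67 ± 0.37), Rpl24 (0.41 ± 0.26) and Rpl3l (0.28 ± 0.54), and the lowest those of Rps27rt (-1.13 ± 0.39), Rpl36al (-0.28 ± 0.55) and Rpl7l1 (-0.18 ± 0.09). The median was 0.04 and the count 2 without htr_V replicate 1, and the count was 3 without htr replicate 2 and 9 without WT replicate 1 or WT replicate 2. It was 3 with a term for Xist, 8 with only the groups compared and 8 with copies added. Over all tested genes 4.52% to 7.58% were higher at that p in these settings. All 16 choroid plexus markers were above 0 here too (median 0.60, 0 called with edgeR, 14 at an unadjusted p under 0.05), with sums of 2498 to 2633 CPM in htr and 3488 to 4251 in htr_V. So were all 16 markers of meningeal fibroblasts (median 0.37), with sums of 266 to 319 and 321 to 403, and neither list overlapped between groups. Of 20 striatal markers 19 were below 0 (median -0.27). Their part in the values of the members was not tested.

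**Figure D4:**
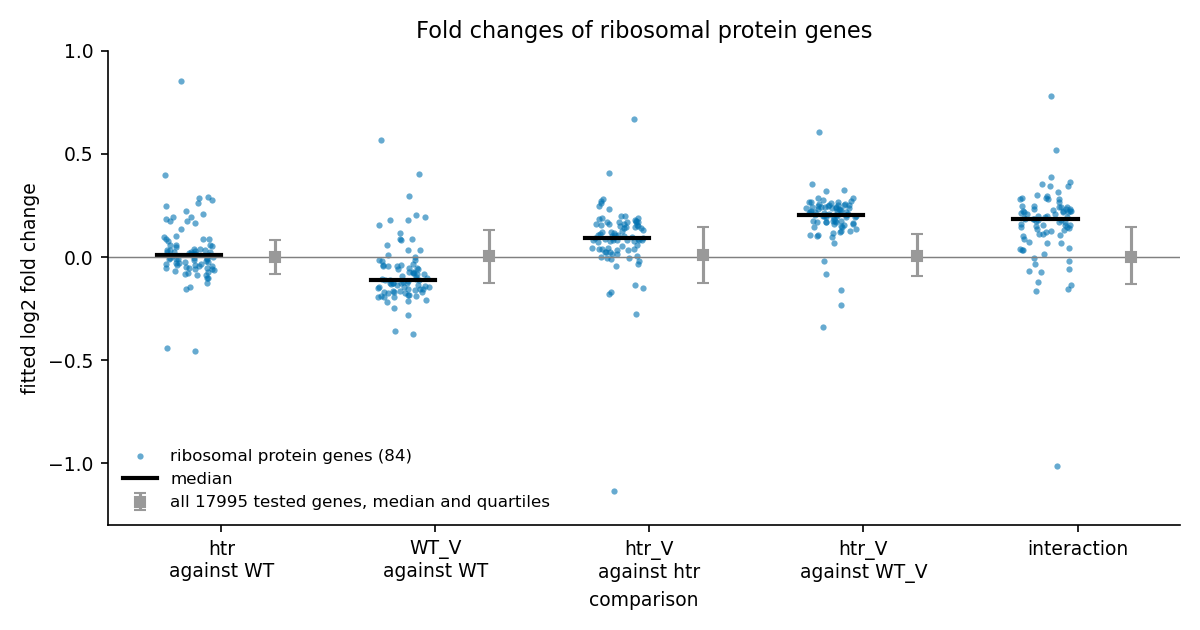
Fitted log2 fold changes (y axis) of the 84 tested ribosomal protein genes (blue dots; black bar, median) in 5 comparisons (x axis), beside the median and quartiles of all 17995 tested genes (grey). The member medians are 0.01, -0.11, 0.09, 0.21 and 0.18 from left to right, and the medians of all genes lie within 0.01 of 0.

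Whether valproic acid acted differently in the 2 genotypes was tested by the interaction, the effect in the knockout minus that in wildtype. Members were above 0 in 73 of 84 (50.5% of all genes), with a median of 0.18. With edgeR 0 members were called, as were 0.0% of all tested genes, and with DESeq2 and limma-voom 0 members. At an unadjusted p under 0.05, 26 were higher (3.15%), 30 with DESeq2 and 29 with limma-voom. Rpsa, a small-subunit protein also known as the laminin receptor, had the smallest p. It was at 728, 749 and 761 CPM in WT, 606, 622 and 730 in WT_V, 705, 629 and 689 in htr and 836, 750 and 733 in htr_V. Its interaction was 0.39 ± 0.11 (adjusted p = 0.833). Rpl13, Rps12, Rpl13a and Rplp0 were also among the smallest p-values, between 0.31 and 0.36. Rpl24 was highest (0.78 ± 0.37), then Rps27a (0.52 ± 0.45), and Rps27rt (-1.01 ± 0.55), Rpl36al (-0.17 ± 0.75) and Rpl21 (-0.15 ± 0.31) lowest. The count of 26 was 7 without WT_V replicate 1, 10 without WT_V replicate 2 or htr_V replicate 1, 12 and 13 without htr replicate 2 and WT replicate 3, and 43 without WT_V replicate 3. It was 15 with the length and GC offset and 47 without both libraries lacking Xist. Over all tested genes 2.02% to 4.36% were higher at that p in these settings. Choroid plexus markers were above 0 in the interaction in 16 of 16 (median 0.58), meningeal markers in 14 of 16 (0.28), blood markers in 7 of 7 (0.71) and striatal markers in 19 of 20 (0.31), and their part was not tested. The 5 contrasts share groups, so their directions are not independent of each other.

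The stalk proteins recruit the elongation factors to the ribosome. Rplp0, which anchors the stalk, was at 390, 407 and 420 CPM in WT, 414, 363 and 378 in htr, 331, 353 and 417 in WT_V and 463, 414 and 422 in htr_V. The WT_V and htr_V libraries overlapped by a single library, WT_V replicate 3. Rplp1 was at 836, 841 and 947 CPM in WT_V and 1142, 1020 and 975 in htr_V, and Rplp2 at 206, 209 and 231 and at 263, 249 and 253, both without overlap. Log2 fold changes of htr_V against WT_V were 0.24, 0.26 and 0.24, with adjusted p of 0.493, 0.417 and 0.398 in edgeR. In WT_V against WT they were -0.15, -0.07 and -0.04.

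Several paralogs had few counts. Rpl10l, a retrogene expressed in testis, had 0 counts in all 12 libraries, which allows up to 0.12 to 0.178 CPM by library, while Rpl10 was at 244 to 310 CPM. Rpl39l, also known from testis, had 1 to 6 counts per library and Rpl39 was at 196 to 274 CPM. Rpl3l, known from striated muscle, had 3 to 19 counts and Rpl3 was at 674 to 830 CPM. Rpl36al, whose overlap with Gm49383 is described above, had 3 to 14 counts and Rpl36a was at 155 to 222 CPM. Rps27l was better expressed, at 20.2 to 28.6 CPM with 225 to 407 for Rps27, and overlapped between groups in htr_V against WT_V (log2 0.23 ± 0.09). Rps27rt, a retrogene that shares 91.1% of its 50-base stretches, was at 63.3, 37.2 and 65.9 CPM in WT, 144, 104 and 52.7 in htr, 67.3, 42.3 and 43.8 in WT_V and 53.5, 48.6 and 36.0 in htr_V. Its libraries within a group differed as much as the groups did.

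In Rpl17 the choice of rows changed the direction of the fold changes. It was at 105, 101 and 147 CPM in WT, 78.3, 86.5 and 95.2 in htr, 169, 159 and 195 in WT_V and 234, 100 and 80.3 in htr_V. Rpl17-ps10, a pseudogene with its sequence, ran the other way, at 223, 214 and 217 CPM in WT, 245, 223 and 236 in htr, 112, 128 and 133 in WT_V and 124, 222 and 246 in htr_V. The 3 WT_V libraries and htr_V replicate 1 had more counts of Rpl17 than of the pseudogene, and the other 8 libraries had fewer. Rpl17 with its copies was at 401.8 to 511 CPM, and the ratio of the highest to the lowest library was 1.27 in place of 2.99. Its log2 fold change in WT_V against WT was -0.19 with the copies in place of 0.57 without them, and in htr_V against WT_V 0.17 in place of -0.34.

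**Figure D5:**
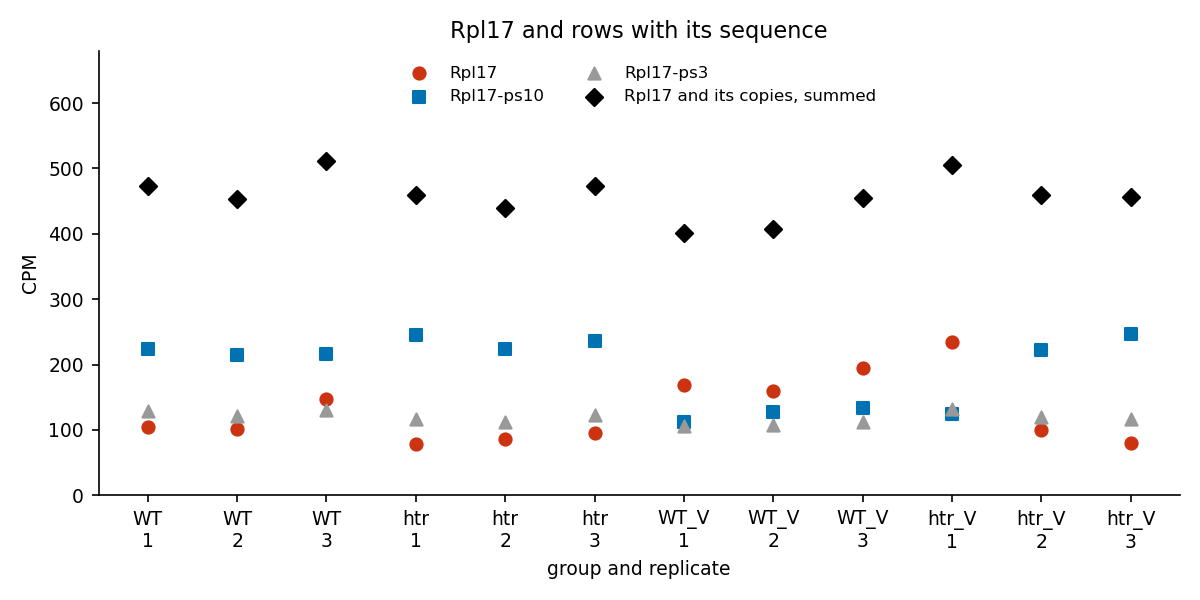
CPM (y axis) of Rpl17, of 2 pseudogenes with its sequence and of the sum of Rpl17 and all its copies, in each library (x axis). Rpl17 lies above Rpl17-ps10 in WT_V replicates 1 to 3 and htr_V replicate 1 and below it elsewhere, while the sum stays between 401.8 and 511.

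Fau and Rack1 are ribosomal proteins whose symbols fall outside the pattern. Fau, a ubiquitin-like fusion that gives a small-subunit protein, was at 333, 348 and 380 CPM in WT_V and 431, 395 and 381 in htr_V (log2 0.19 ± 0.07). Rack1, the scaffold on the small subunit, was at 247, 247 and 294 and at 317, 295 and 306 (log2 0.22 ± 0.08).

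Other genes of the translation machinery were counted from lists. For comparison, 51.2% of all tested genes were above 0 in htr_V against WT_V, with 0.05% called and 4.01% higher and 3.42% lower at an unadjusted p under 0.05. In WT_V against WT 51.5% were above 0, with 0.895% called, 6.55% higher and 7.61% lower. A list of 36 genes held translation factors and other genes listed for the tract, which was not checked gene by gene here. Of the 36, 23 were above 0 in htr_V against WT_V (median 0.03) and 0 passed edgeR's test, with 2 higher at an unadjusted p under 0.05. The largest differences there were those of Tpt1 at 0.21 and Ybx1 at 0.16. In WT_V against WT 29 were below 0 (median -0.08), with 13 lower and 1 higher at an unadjusted p under 0.05. There 4 fell, the helicase Eif4a2 (by 0.33 on the log2 scale) and the initiation factor subunits Eif3i, Eif3e and Eif3m (by 0.34, 0.28 and 0.27; edgeR, adjusted p 0.0193 to 0.0473).

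Of 50 ribosome biogenesis genes, 27 were above 0 in htr_V against WT_V (median 0.00) and 25 in WT_V against WT (median 0.00), with 0 past edgeR's test in either. At an unadjusted p under 0.05, 1 was higher and 1 lower in the first, and 4 were higher and 5 lower in the second. Utp15 (-0.22) and Nop10 (0.20) differed most in htr_V against WT_V. Of 32 mTORC1 genes, 18 were above 0 in htr_V against WT_V (median 0.00), with 0 past edgeR's test and 5 higher at an unadjusted p under 0.05. Eif4ebp1, which restrains initiation, was at 0.69 and Lamtor5 at 0.25. In WT_V against WT Ddit4, an mTORC1 inhibitor, rose by 0.47 and Lamtor3, a subunit of the Ragulator complex that recruits mTORC1 to lysosomes, fell by 0.31 (edgeR, adjusted p = 0.0296 and 0.0474). Of 12 tested small nucleolar RNA host genes, several of which carry the tract, 10 were above 0 in htr_V against WT_V (median 0.18), with 0 past edgeR's test and 2 higher at an unadjusted p under 0.05. The named host genes Snhg1 and Snhg17 were at 0.28 ± 0.15 and 0.26 ± 0.22 (SE).

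These 6 calls in WT_V against WT depended on single libraries and on the fit. Eif4a2, Eif3i, Eif3e, Eif3m, Ddit4 and Lamtor3 each lost the call without any 1 of WT replicate 2, WT replicate 3, WT_V replicate 1 or WT_V replicate 3 (edgeR, adjusted p 0.0585 to 0.282). Eif4a2, Eif3e, Eif3m and Lamtor3 also lost it without WT_V replicate 2. Leaving out a further library ended the call for Eif3m and Lamtor3 (WT replicate 1, htr replicate 2, htr_V replicate 2 or 3, and for Lamtor3 htr replicate 3), Eif4a2 (htr replicate 2 or 3, htr_V replicate 3) and Eif3e (htr_V replicate 3). With a term for Xist all 6 were lost (0.0612 to 0.135). With the length and GC offset all but Ddit4 were lost (0.0586 to 0.282). With the replicate number as a block Eif4a2, Eif3e, Eif3m and Lamtor3 were at 0.0689, 0.0615, 0.057 and 0.0609. With limma-voom Eif3m was at 0.0529 and Lamtor3 at 0.0563, and in a fit of only the groups compared Ddit4 was at 0.0923 and Lamtor3 at 0.0633.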

How the data were processed

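The authors deposited raw counts per Ensembl gene for 12 libraries made after depletion of ribosomal RNA, per the labels. HISAT2 and GRCm39 are named in the submitters' processing notes; the counting program, annotation and strand are not given in the sources used. Symbols and lengths came from GENCODE's annotation on GRCm38 by identifier (52125 of 56748, 99.53% of counts), so positions are given only for RefSeq start windows. Genes were filtered with filterByExpr (17995 kept), scaled by TMM (0.93 to 1.02) and fitted with edgeR 4.0.16 (robust quasi-likelihood, a mean per group, all 12 libraries, R 4.3.3); p-values are two-sided and were adjusted across every tested gene by Benjamini-Hochberg, with a threshold of 0.05. CPM are scaled by TMM. DESeq2 1.42.0, limma 3.58.1 (voom), other scaling, filters, terms, the replicate block and each library left out were alternatives. The common biological coefficient of variation was 0.0898; counting error is covered by the fit. The pipeline was tested on simulated data. Figures and summaries used Python 3.11.15.

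Members and lists were chosen with earlier results of these data known. Named were, per contrast, members past the test, the 6 smallest p-values and the 3 highest and 3 lowest fold changes, with paralogs, stalk proteins, the 5 highest and lowest levels, Fau and Rack1, and in translational lists up to 4 genes past the test and the 2 largest differences; a few genes that the rule names are not reported here. Family sums, subsets by shared sequence and the removal of both libraries richest in mitochondrial RNA were chosen after seeing the data.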

Additional observations from a re-analysis of the deposited data

Results flagged for a closer look

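In 3 members every WT_V library was below every WT library while every htr_V library was above every htr library: Rpl13, Rpl10a and Rpl36, all large-subunit proteins. This pattern held in 3.57% of the 84 tested members and 0.161% of all 17995 tested genes, and the reverse pattern in 0 members and 0.211% of genes. Rpl13 was at 592, 625 and 617 CPM in WT, 510.1, 522 and 574 in WT_V, 597, 526 and 560.1 in htr and 644, 612 and 615 in htr_V. The difference of the valproic acid effect, htr minus WT, was 0.34 ± 0.10 (SE) for Rpl13, 0.24 ± 0.10 for Rpl10a and 0.22 ± 0.09 for Rpl36 on the log2 scale, and each had an adjusted p of 0.833 in edgeR's interaction test. They were picked out after their values were seen, and they share 80.3%, 88.1% and 81.1% of their 50-base stretches with other genes. Single outlying libraries within groups of 3 were not flagged by a rule, and ranges with a library left out are given below.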

How the results depend on the processing

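Members called in htr_V against WT_V numbered 1 with no count filter (Rpl41), 1 with DESeq2 (Rpl36), 1 without both libraries lacking Xist (Rpl41) and 0 to 4 with a library left out. Over all genes the calls there were 60 of 33793 with no filter and 25 of 17995 with DESeq2. They were 29 without both libraries lacking Xist and 7 to 86 with a library left out. In htr against WT the count of members was 1 with no filter (Rps29, beside 15 of 33793 genes) and 0 in the other settings. In WT_V against WT it was 3 with no filter, 2 with DESeq2 (Rpl10 added), 2 without htr_V replicate 1 and WT_V replicate 3 (Rpsa added), 2 with copies added (Rps12 added), 0 with limma-voom, with a term for Xist and with the length and GC offset, and 0 to 1 with a library left out. Over all genes the calls in WT_V against WT were 512 of 33793 with no filter, 333 of 17995 with DESeq2 and 162 of 17849 with copies added. They were 134 without htr_V replicate 1 and WT_V replicate 3. The count of members called stayed 0 in all settings run for htr_V against htr and the interaction. Medians of the members moved by more than the spread between libraries (0.08) only without both libraries lacking Xist (0.30 in htr_V against WT_V, 0.27 in the interaction) and with the length and GC offset (0.12 in htr_V against WT_V). With a library left out they ran from 0.14 to 0.27 in htr_V against WT_V, -0.01 to 0.04 in htr against WT, -0.15 to -0.07 in WT_V against WT, 0.04 to 0.13 in htr_V against htr and 0.13 to 0.23 in the interaction. With mitochondrial genes out of the denominator, members were 3.13%, 3.21%, 2.99% and 3.41% of counts in WT, htr, WT_V and htr_V.

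Signs turned in Rpl36al and Rpl3l, which have few counts, in Rpl17, which has many copies, and in Rps27rt. Rps27rt shares 91.1% of its 50-base stretches. None of these members passed the test. Rpl17 in htr_V against WT_V was 0.018 without both libraries lacking Xist and 0.17 with copies, and in WT_V against WT -0.19 with copies. With libraries left out, Rpl36al ran from -0.48 (without htr_V replicate 1 and WT_V replicate 3) to 0.12 (without WT_V replicate 2) in htr_V against WT_V, from -0.73 (without htr replicate 2) to 0.25 (without htr replicate 1) in htr_V against htr, and from -0.62 to 0.36 (the same libraries) in the interaction, which was 0.19 without WT_V replicate 2, 0.13 with limma-voom and 0.10 with copies. Rps27rt ran from -0.38 (without htr_V replicate 1 and WT_V replicate 3) to 0.094 (without WT_V replicate 1) in htr_V against WT_V. Rpl3l ran from -0.54 (without htr replicate 2) to 0.80 (without WT replicate 2) in htr against WT, where it was -0.13 without WT replicate 3, and from -0.026 (without WT replicate 3) to 0.91 (without WT replicate 2) in WT_V against WT. The causes were not tested.

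With the replicate block, members called were 0 in WT_V against WT in place of 1, and no other count of members called changed. Deviations of same-numbered libraries of different groups correlated at -0.06 to 0.11, and those of other numbers at -0.12 to 0.11, so the numbers were not taken to pair libraries. A fit of only the groups compared does not exist for the interaction. Few counts, 19 or fewer per library, limit the precision of Rpl36al, Rpl3l and Rpl39l.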

Other observations

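Over all 17995 tested genes, 51.5% were above 0 in WT_V against WT, with 0.895% called and 7.61% lower at an unadjusted p under 0.05, and 51.2% were above 0 in htr_V against WT_V, with 0.05% called and 4.01% higher. Of 77 tested genes for proteins of the mitochondrial ribosome, 74 were below 0 in WT_V against WT (median log2 -0.17) and 60 above 0 in htr_V against WT_V (median 0.08). With edgeR 0 passed the test in either, with 36 lower in the first and 7 higher in the second at an unadjusted p under 0.05. Of 82 tested nuclear genes of oxidative phosphorylation, 68 were below 0 in WT_V against WT (median -0.12), with 4 past the test, and 78 above 0 in htr_V against WT_V (median 0.16), with 0 past edgeR's test and 38 at an unadjusted p under 0.05. Both lists, like the cytosolic ribosomal protein genes, were lower in WT_V than in WT and higher in htr_V than in WT_V by their medians. WT_V enters both comparisons. In htr_V against htr the lists and the members parted. There 64 of the 77 mitochondrial ribosome genes were below 0 (median -0.10), with 15 lower at an unadjusted p under 0.05 (7.75% of all genes). Of the 82 oxidative phosphorylation genes 48 were below 0 (median -0.03), whereas 72 of 84 members were above 0 (median 0.09).

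Some members differed between libraries of 1 group by more than between groups. Rps27a was at 232 CPM in WT replicate 3, 251 in htr replicate 1, 307 in htr_V replicate 2 and 221 in htr_V replicate 1, and at 131 to 170 in the other 8 libraries. Adding its copies left a ratio of 2.17 between the highest and the lowest library. Rpl21 was at 102 to 109 CPM in WT replicates 1 and 3, htr replicate 2 and WT_V replicate 1, and at 117 to 164 in the others. Of the 84 tested members 16 had a ratio above 1.5 between the highest and lowest of all 12 libraries, and the median ratio was 1.35. This ratio also takes in differences between groups, and the 16 include Rps29, Rps28, Rpl41 and Rpl13a.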
